A study of Mus musculus with 4 samples.

Results

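The granzymes and perforin are the proteins that cytotoxic lymphocytes deliver to a target cell, and the 9 of them described here are Prf1, Gzma, Gzmk, Gzmb, Gzmc, Gzmd, Gzme, Gzmf and Gzmg. They were found by their gene names on the array, where 10 probes carry them, and are 9 of the 23504 gene names tested. They were chosen on the strength of the differences between these same 4 arrays, so those differences are given as a description with no test. RNA came from tumours that 4T1 cells, a mouse mammary carcinoma line, formed after implantation in untreated BALB/C mice. Tumour cells had been sorted with the ALDEFLUOR kit, a fluorescent assay of aldehyde dehydrogenase (ALDH), into fractions of high and of low ALDH activity. The 4 groups were ALDH-low and ALDH-high cells at zeitgeber time ZT0 and ALDH-low and ALDH-high cells at ZT12, where zeitgeber time is by convention counted in hours from lights on. Each group was hybridised to 1 one-colour Agilent array. The number of mice behind a fraction and whether mice were pooled are not given in the sources used here.

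Granzymes are serine proteases stored in secretory granules, mainly of natural killer (NK) cells and cytotoxic T cells. On contact with a target the granules are released, perforin forms pores in the target's membrane, and granzymes that enter cleave intracellular proteins and can start cell death. In the mouse the family is larger than in people: Gzma and Gzmk lie close together, while Gzmb and Gzmc to Gzmg lie in a cluster with genes for mast cell chymases. In tumours these transcripts are commonly read as a sign of cytotoxic lymphocytes, although carcinoma and myeloid cells can also express some of them.

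The arrays paired up in a way that bears on every value below. Slide 1 carried the ZT0 arrays and slide 2 those of ZT12, which leaves time and slide inseparable. Of the ZT0 arrays, ALDH-low was at position 1_1 and ALDH-high at 1_2. Of the ZT12 arrays, ALDH-high was at 1_1 and ALDH-low at 1_2. A change of the ALDH contrast with time therefore cannot be told apart from a difference between positions. Over 19299 features well above background on all 4 arrays, the 2 arrays at position 1_1 differed with an SD of 0.451 log2 units, and 96.5% of features lay within 2-fold. The 2 arrays at position 1_2 differed with an SD of 0.754, with 84.0% within 2-fold. The other 4 pairs of arrays had SDs from 1.45 to 1.52, and between 49.1% and 53.8% of their features lay within 2-fold. The pairs that resembled each other thus went against both labels, sharing neither ALDH fraction nor time. Whether the labels of 2 arrays were exchanged was not tested, and an exchange of the fraction labels at 1 of the times would turn the sign of every ALDH difference at that time. The titles of both ZT12 samples end in a 2 that the sources used here do not explain. The scanner software marked both arrays at position 1_1 for evaluation, and their spike-in slopes were 0.873 and 0.789 against 0.956 and 0.944 at position 1_2. Between 55.8% and 60.6% of 59305 spots were well above background and 0 were saturated. The 75th percentile of the signal ran from 156.3 to 458.8.

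Levels are given on the log2 scale relative to the 75th percentile of each array, in the order ZT0 ALDH-low, ZT0 ALDH-high, ZT12 ALDH-low, ZT12 ALDH-high. Each gene was read by 1 spot of 1 probe on each array. The scanner's own error for the spots of these genes that were well above background was 10.0% to 15.7% of the signal, which covers the reading of a spot and not the spread between tumours. No group has a replicate. A gene that was not well above background on 1 array of a pair has only a bound, written "at least": it sets the brighter level against the dim spot's own level or the array's lowest level still well above background, whichever is higher. Such a bound holds for the main processing and moves with other settings, as given below. Levels of different probes cannot be set against each other, so genes are compared by their differences alone. In sorted bulk RNA, fewer cells of a type and less RNA per cell cannot be told apart.

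All 9 genes were high on the same arrays. Each was higher on ZT0 ALDH-low and on ZT12 ALDH-high than on the other pair, and the 6 that could be ordered there were lowest on ZT12 ALDH-low. Prf1, Gzma and Gzmb were well above background on all 4 arrays. Gzmc, Gzme and Gzmf were well above background on all but ZT12 ALDH-low. Gzmd, Gzmg and Gzmk were so only on the 2 arrays where they were high, so they entered the tested set through those arrays alone. The processed signals of all 9, each divided by the 75th percentile of its array and summed, came to 40.2 for ALDH-low cells at ZT0, 2.79 for ALDH-high cells at ZT0, 0.446 for ALDH-low cells at ZT12 and 36.7 for ALDH-high cells at ZT12.

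**Figure D1:**
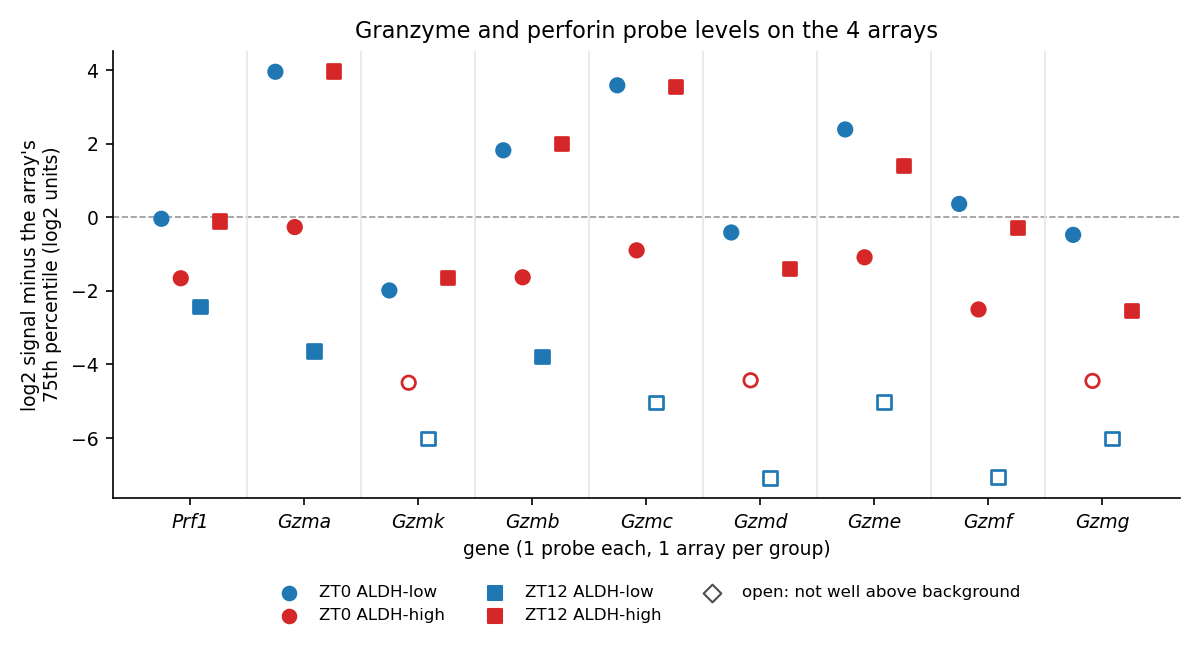
Log2 signal relative to each array's 75th percentile (y axis, log2 units) of the 9 genes (x axis), with 1 point per array; blue is ALDH-low, red is ALDH-high, circles are ZT0, squares are ZT12 and open points were not well above background. In each gene the ZT0 ALDH-low circle and the ZT12 ALDH-high square are the upper pair, as for Gzma with 3.95, -0.27, -3.63 and 3.97.

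Perforin, which makes the pore, is encoded by Prf1. Its levels were -0.04, -1.66, -2.43 and -0.11, from processed signals of 207, 95.2, 85.1 and 145. The probe was high on the ZT0 ALDH-low and ZT12 ALDH-high arrays and low on the other pair, all 4 well above background. In the ALDH-high fraction Prf1 was lower by 3.07-fold at ZT0, and higher by 5.01-fold at ZT12. These were the smallest measured differences among the 9 genes at both times.

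Gzma and Gzmk encode granzymes that cleave after basic residues. Gzma, a major granzyme of NK cells and killer T cells, had levels of 3.95, -0.27, -3.63 and 3.97. Within the ALDH-low fraction its processed signal was 3307 at ZT0 and 37.1 at ZT12. Gzma was 18.6-fold lower in ALDH-high cells at ZT0 and 194-fold higher at ZT12. Gzmk, its neighbour on chromosome 13, had levels of -1.99, -4.50, -6.01 and -1.64, of which the middle pair were not well above background. It was at least 5.69-fold lower in ALDH-high cells at ZT0 and at least 9.77-fold higher at ZT12. These values come from the brighter of 2 Gzmk probes. The other was not well above background on any array, with signals of 11.5, 5.44, 5.77 and 9.81. The Gzma probe lies on chromosome 13 at 113884035 to 113884094, the Gzmk probe used at 113961816 to 113961875, and the Prf1 probe on chromosome 10 at 60766941 to 60767000, in build mm9 as the array files give them. Exon and UTR positions were not analysed here.

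Gzmb encodes granzyme B, which cleaves after aspartate and can activate caspases. Its levels were 1.82, -1.63, -3.78 and 2.003, all well above background. Gzmb was 10.9-fold lower in ALDH-high cells at ZT0 and 55.0-fold higher at ZT12. As with Gzma, the difference at ZT12 was the larger, and the levels on the upper pair of arrays nearly coincided.

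Gzmb stands at one end of a run of granzyme genes on chromosome 14 that also holds Gzmc, Gzmd, Gzme, Gzmf and Gzmg, close copies known only in rodents. Gzmc has been tied to killing that does not need caspases, and Gzmd to Gzmg are best known from uterine NK cells. These 5 differed in the same directions, but so did all 9 genes, so direction does not set them apart. As they are close copies, the stretches that precede their start sites are printed here. The stretches come from the RefSeq promoters of assembly GRCm38.p6, all on the minus strand and read 5′ to 3′. Capitals mark the letters TGTGGT, the core site of RUNX factors, and the 8 bases at the place where Gzmc, Gzmf and Gzmg hold TGACGTCA, the cAMP response element. They lie at chr14:56234671-56234765 for Gzmc, chr14:56132611-56132705 for Gzmd, chr14:56120644-56120738 for Gzme, chr14:56211446-56211540 for Gzmf and chr14:56159613-56159707 for Gzmg.
Gzmc: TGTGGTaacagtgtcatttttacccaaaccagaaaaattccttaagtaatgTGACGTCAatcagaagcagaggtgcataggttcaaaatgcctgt
Gzmd: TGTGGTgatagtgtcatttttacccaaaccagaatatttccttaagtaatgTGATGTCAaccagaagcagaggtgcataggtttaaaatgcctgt
Gzme: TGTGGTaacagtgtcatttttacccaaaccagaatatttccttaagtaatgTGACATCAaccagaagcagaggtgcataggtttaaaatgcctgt
Gzmf: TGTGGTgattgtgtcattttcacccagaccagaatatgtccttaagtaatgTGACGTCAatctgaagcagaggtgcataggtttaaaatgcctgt
Gzmg: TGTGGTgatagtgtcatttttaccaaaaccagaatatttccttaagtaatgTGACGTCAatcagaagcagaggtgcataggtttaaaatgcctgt
Over the 250 bases before the start, the 10 pairs among these 5 promoters were 84.4% to 95.6% identical and shared runs of 24 to 51 bases. Counted from the first base of the element, Gzmd differs from it by C4T and Gzme by G5A. The first base of these 8 lies 57, 61, 62, 82 and 77 bases before the start in Gzmc, Gzmd, Gzme, Gzmf and Gzmg.

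The other promoters had little in common with these or with each other, as no pair outside the 5 shared a run of more than 12 bases. Stretches of Gzma (chr13:113100992-113101111, minus strand), Gzmb (chr14:56262345-56262464, minus strand) and Prf1 (chr10:61297706-61297825, plus strand) are shown because these 3 genes were measured on every array. Capitals mark TGTGGT or its reverse complement, AGGTGT, the half-site of T-box factors, or its reverse complement, and TGANTCA, the AP-1 site.
Gzma: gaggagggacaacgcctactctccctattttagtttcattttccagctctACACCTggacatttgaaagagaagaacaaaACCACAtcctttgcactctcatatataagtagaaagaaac
Gzmb: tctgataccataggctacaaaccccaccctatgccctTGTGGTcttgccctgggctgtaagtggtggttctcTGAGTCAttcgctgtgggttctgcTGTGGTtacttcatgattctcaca
Prf1: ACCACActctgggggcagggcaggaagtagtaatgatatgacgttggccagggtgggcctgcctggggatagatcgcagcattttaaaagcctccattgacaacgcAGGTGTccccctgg
On either strand of the 250 bases, TGTGGT occurred in 8 of the 9 promoters, all but that of Gzmk, and in 14.05% of 32851 RefSeq promoters. TGACGTCA occurred in 3 of 9 and in 1.55% of all, AGGTGT in 3 of 9 (Gzma, Gzmk and Prf1) and in 11.8%, and TGANTCA in 1 of 9 (Gzmb) and in 6.75%. No 2 of these matches overlapped. Copies share their letters by descent, so the 5 alike promoters do not count as separate cases, and a match describes the reference letters alone.

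The 5 copies were read by probes that differ from one another, and no pair of the 10 probes shares a run of more than 9 bases. The probes of the 3 copies with the dimmest spots on ZT12 ALDH-low are shown for comparison, 60 bases each, on the minus strand of chromosome 14 in mm9, at 56750116 to 56750175 for Gzmd, 56824785 to 56824844 for Gzmf and 56776297 to 56776573 for Gzmg, whose 60 bases span 277 of the genome.
Gzmd: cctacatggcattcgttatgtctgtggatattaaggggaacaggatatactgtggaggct
Gzmf: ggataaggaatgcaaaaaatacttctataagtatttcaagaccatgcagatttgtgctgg
Gzmg: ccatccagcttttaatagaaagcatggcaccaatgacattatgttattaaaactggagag
Whether a probe can also bind the transcript of another copy was not analysed here, so the copies are uncertain as separate genes.

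Gzmc had levels of 3.59, -0.90, -5.03 and 3.55, and only the third was not well above background. It was 22.4-fold lower in ALDH-high cells at ZT0 and at least 357-fold higher at ZT12, the largest of the 6 measured differences at ZT0 and the largest bound at ZT12. Gzme had levels of 2.39, -1.09, -5.02 and 1.40, and Gzmf of 0.36, -2.51, -7.06 and -0.28, both again not well above background on ZT12 ALDH-low. Gzme was 11.1-fold lower at ZT0 and at least 80.4-fold higher at ZT12. Gzmf was 7.30-fold lower at the first time and at least 25.1-fold higher at the second. For all 3 the ZT0 ALDH-high array lay between the upper pair and the ZT12 ALDH-low array.

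Gzmd and Gzmg were the copies detected on the fewest arrays. Gzmd had levels of -0.41, -4.43, -7.09 and -1.39, from signals of 160.3, 13.9, 3.37 and 59.7. Gzmg had levels of -0.48, -4.45, -6.01 and -2.54, from signals of 153, 13.8, 7.12 and 26.9. In both the middle pair of arrays was not well above background. Gzmd was at least 16.2-fold lower in ALDH-high cells at ZT0 and at least 11.6-fold higher at ZT12, and Gzmg at least 15.6-fold lower and at least 5.23-fold higher. For these 2 genes the bound at ZT0 was the larger, where the level on ZT12 ALDH-high was below that on ZT0 ALDH-low.

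The ALDH comparison therefore ran in opposite directions at the 2 times for the whole set. At ZT0, 9 of 9 were at least 2-fold lower in the ALDH-high fraction and 0 higher, with 6 measured and 3 as bounds, and 8 were at least 4-fold lower. Of all 23504 features, 31.2% were at least 2-fold lower and 19.4% at least 2-fold higher. At ZT12, 9 of 9 were at least 2-fold higher and 0 lower, with 3 measured and 6 as bounds, and all 9 passed 4-fold, while 31% of all features were at least 2-fold higher and 16.1% lower. The 9 genes had a median difference of -3.47 at ZT0, and of 4.65 at ZT12, compared with -0.33 and 0.30 over all features. Being lower at ZT0 and higher at ZT12, each by at least 2-fold, was shared with 20% of all features, and the reverse was seen in 14% and in 0 of the 9. These contrasts chose the genes, so nothing is read from the counts.

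**Figure D2:**
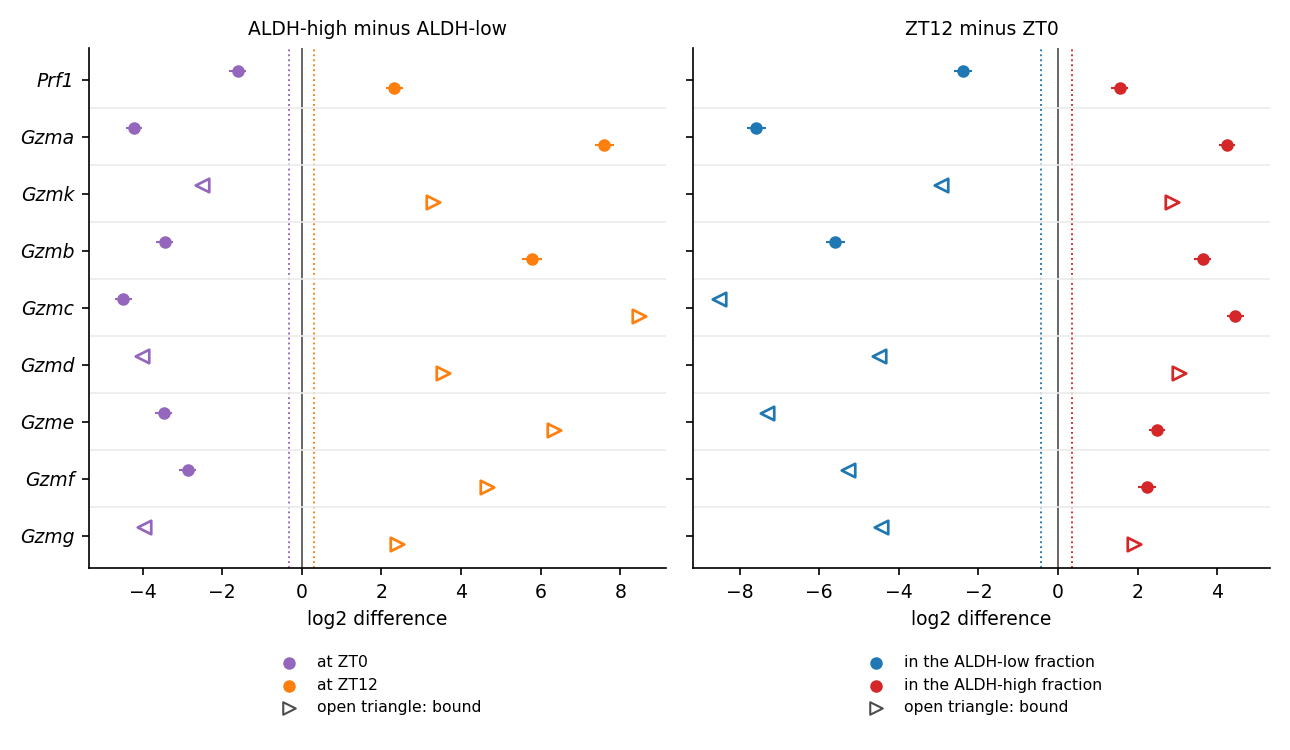
Log2 differences (x axes) of the 9 genes (y axis), ALDH-high minus ALDH-low at each time on the left and ZT12 minus ZT0 in each fraction on the right; bars are the scanner's spot error, open triangles are bounds that point away from 0, and dotted lines are the medians of all 23504 features. Every gene lies on opposite sides of 0 in the 2 contrasts of each panel, from -1.62 and 2.32 for Prf1 to -4.48 and at least 8.48 for Gzmc on the left.

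The same 4 levels, read across time, gave the opposite signs in the 2 fractions. In the ALDH-low fraction all 9 genes were at least 4-fold lower at ZT12 than at ZT0. Gzma was 192-fold lower, Gzmb 48.4-fold and Prf1 5.24-fold, and the bounds were at least 365-fold for Gzmc, 159-fold for Gzme, 39.1-fold for Gzmf, 22.8-fold for Gzmd, 21.8-fold for Gzmg and 7.66-fold for Gzmk. Of all features 32.5% were at least 2-fold lower and 16.3% higher. In the ALDH-high fraction all 9 were at least 2-fold higher at ZT12 and 7 at least 4-fold, against 31.7% of all features at least 2-fold higher and 18.9% lower. Gzmc was 21.9-fold higher, Gzma 18.9-fold, Gzmb 12.4-fold, Gzme 5.62-fold, Gzmf 4.68-fold and Prf1 2.93-fold, with bounds of at least 8.23-fold for Gzmd, 7.25-fold for Gzmk and 3.75-fold for Gzmg. The median over the 9 genes was -5.29 in the ALDH-low fraction and 2.86 in the ALDH-high fraction, and over all features -0.43 and 0.35. The ALDH and time contrasts share arrays, so they are not separate evidence.

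The split of all features into higher and lower depended on the scaling, while the direction of each of the 9 genes did not. With each array centred on its median, the medians of all features shifted by 0.49 and -0.85 in the ALDH contrasts at ZT0 and ZT12, and by 0.83 and -0.54 in the time contrasts in ALDH-low and ALDH-high. The shares at least 2-fold higher and lower then became 28.9% and 19.1% at ZT0, 19.3% and 36.5% at ZT12, 33.3% and 17.1% over time in ALDH-low, and 19.1% and 29.1% in ALDH-high. With the 75th percentile taken over probes detected on all arrays they became 12.8% and 44.6%, 39% and 10%, 10.2% and 44.4%, and 42.4% and 12.6%, in the same order. Across all 8 other settings the difference of Gzma stayed between -4.69 and -3.74 at ZT0 and between 5.61 and 7.98 at ZT12, and that of Prf1 between -2.09 and -0.96 and between 1.20 and 2.70. Bounds moved further. At ZT12 that of Gzmc ran from 5.39 to 8.86 and that of Gzme from 3.42 to 6.71. The Gzmd bound at ZT0 ran from -4.49 to -1.84. In these 3 the smallest bound came with normexp background correction and quantile normalization.

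An additive limma fit with terms for ALDH and for time was run over all features. It called 0 features for ALDH and 0 for time at an adjusted p of 0.05 (limma, Benjamini-Hochberg), with 7 and 2 features at an unadjusted p under 0.05. Its 1 residual degree of freedom is the ALDH by time difference itself, and the standard error was 1.54 log2 units for every feature. No p is given for Prf1 or any granzyme, since these values chose them.

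Within a position the granzymes parted into groups. Between the arrays at position 1_1, ZT12 ALDH-high and ZT0 ALDH-low, both fraction and time differ. Gzma (0.02), Gzmb (0.18), Gzmc (-0.03), Prf1 (-0.06) and Gzmk (0.35) differed by less than 0.451. That is the SD between these arrays over features well above background on all 4, which Gzmc and Gzmk are not. Gzmf (-0.64), Gzmd (-0.98), Gzme (-0.98) and Gzmg (-2.06) were lower on the ZT12 ALDH-high array. Gzmg, with 153 against 26.9 in signal, was 4.17-fold lower and with this scaling the only one of the 9 past 2-fold. In all, 0 of 9 were at least 2-fold higher and 1 lower, against 2.92% and 1.65% of all features, and the median was -0.06 for the 9 genes and 0.03 for all features. The 4 lower genes are the neighbours Gzmd, Gzme, Gzmf and Gzmg, while Gzmc, whose promoter is 84.4% to 86.5% identical to theirs over the bases aligned, differed by -0.03. In the 8 other settings Gzme lay between -1.12 and -0.96, Gzmf between -0.77 and -0.49, Gzmd between -1.17 and -0.55, and Gzmg between -2.41 and -0.95. Gzmg was under 2-fold with normexp and the 75th percentile alone. The number at least 2-fold lower rose to 3 under median scaling, quantile normalization, the percentile over probes detected on all arrays, and the series table. With normexp and quantile normalization it was 2.

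At position 1_2, ZT0 ALDH-high held more of these transcripts than ZT12 ALDH-low. Gzma was 10.3-fold higher, Gzmb 4.43-fold and Prf1 1.71-fold, and the bounds were at least 16.3-fold for Gzmc, 14.3-fold for Gzme and 5.35-fold for Gzmf. Gzmd, Gzmg and Gzmk were not well above background on both arrays and have no fold. In all, 5 of 9 were at least 2-fold higher and 0 lower, against 12.1% and 5.76% of all features. These are smaller with normexp background correction and quantile normalization, where Gzma differed by 1.62 log2 units and not by 3.36, Gzmb (0.82) and Gzmf (0.63) fell under 2-fold, and 3 of 9 were past it. The shares of all features also moved, to 1.8% higher and 2.37% lower in that setting, and to 5.6% and 9.85% under median scaling, where 5 of 9 were again at least 2-fold higher. Whether the 4 arrays would order the genes in the same way at exchanged positions was not tested.

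**Figure D3:**
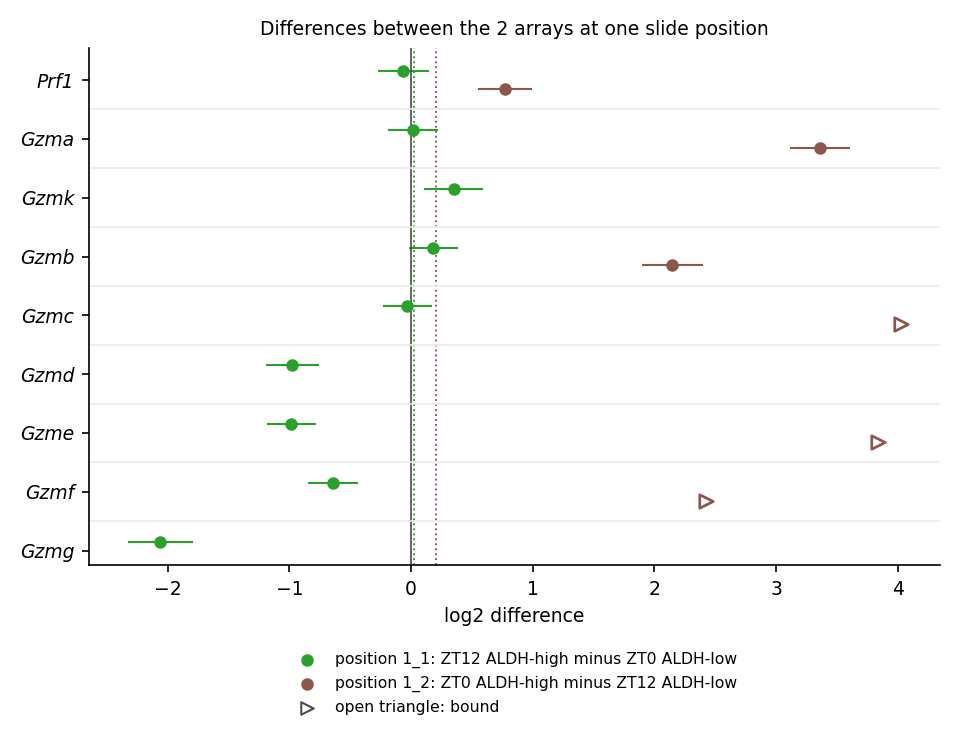
Log2 differences (x axis) of the 9 genes (y axis) between the 2 arrays at each slide position, green for ZT12 ALDH-high minus ZT0 ALDH-low and brown for ZT0 ALDH-high minus ZT12 ALDH-low; bars are the scanner's spot error, open triangles are bounds and dotted lines the medians of all features. Prf1, Gzma, Gzmk, Gzmb and Gzmc lie between -0.06 and 0.35 in green, Gzmd to Gzmg between -0.64 and -2.06, and every brown point lies above 0.

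The pattern did not run along the whole chromosome 14 cluster. The probes of the 6 granzyme genes there span 141.52 kb, from Gzme through Gzmd, Gzmg, Gzmf and Gzmc to Gzmb. Gzmn, which lies among them, was not well above background on any array, and Gm4022, a predicted gene, only on 1, with a bound of at least 1.58 at ZT12. Between Gzmc and Gzmb lies a transcript named ENSMUST00000182170, well above background on all 4 arrays, which differed by 0.72 at ZT0 and by -0.31 at ZT12, unlike the granzymes on either side. On the side of Gzme lie Ctsg, the neutrophil and mast cell protease cathepsin G, and the mast cell proteases. From here on, paired values give the log2 difference of ALDH-high over ALDH-low, first for ZT0 and second for ZT12. Ctsg, whose probe is the nearest on that side, gave -1.56 and -0.48, and its neighbour Mcpt8, a basophil protease, -0.47 and 3.44. The first sign of Mcpt8 turned under median scaling. Mcpt4 gave 1.20 and 0.62, and the second sign turned under median scaling. Mcpt1, Mcpt2 and Cma1, detected on the same 2 arrays as Gzmd, Gzmg and Gzmk so that their direction was fixed by the filter, had bounds of at most -2.67, -1.83 and -2.01 at ZT0 and at least 4.98, 2.84 and 2.89 at ZT12. Mcpt-ps1 ran the other way with 2.97 and -2.51, and Cma2 gave 0.97 and -0.01. Mcpt9 was not well above background on any array, and on the other side Rnf17 gave 0.09 and 0.57. The neighbours were taken by position, within 200 kb of the outer granzyme probes.

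**Figure D4:**
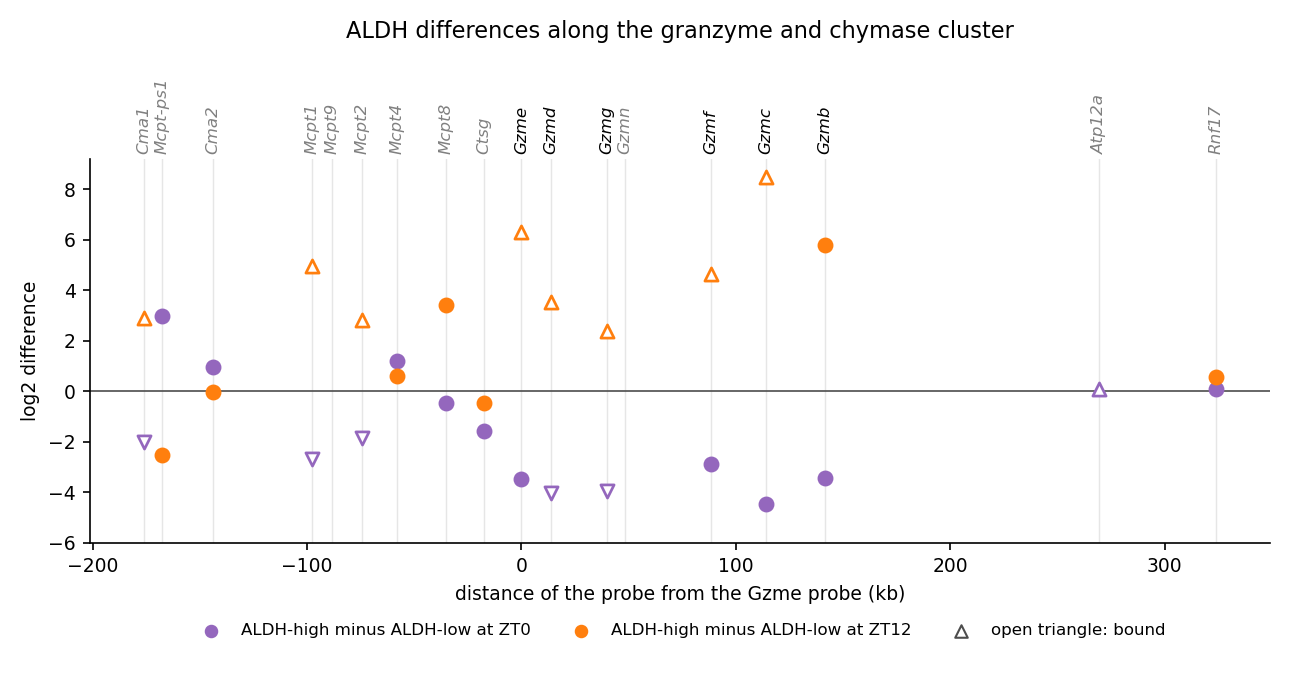
ALDH-high minus ALDH-low log2 difference (y axis) at ZT0 in purple and at ZT12 in orange against the distance of each probe from the Gzme probe (x axis, kb), for named genes of the chromosome 14 cluster, leaving out clones, transcripts and predicted genes, with granzymes of the set named in black and neighbours in grey; open triangles are bounds. From Gzme to Gzmb each of the 6 has a purple point below -2.8 and an orange one above 2.3. No plotted neighbour has a purple point below -2.8, though Mcpt8 and the bounds of Mcpt1, Mcpt2 and Cma1 have the same signs. Mcpt9 and Gzmn have no point.

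Gzmm, a granzyme gene on chromosome 10 that is not among the 9 and is named here after its values were seen, ran the opposite way. Its levels were -2.26, -0.26, -0.27 and -1.86, so that it was low where the 9 were high. Its ALDH differences were 1.996 at ZT0 and -1.59 at ZT12. Of 8 tested genes in the list of other granzymes and chymase locus proteases, 4 were at least 2-fold lower and 2 higher at ZT0. At ZT12, 4 were higher and 1 lower. For this and each list below, the shares of all features are 31.2% lower and 19.4% higher at ZT0. At ZT12 they are 31% higher and 16.1% lower, and nothing is read from a count near these shares.

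Among 12739 features with a gene symbol that were well above background on all 4 arrays, likeness to the mean profile of Prf1, Gzma and Gzmb was measured as the root mean square distance of centred log2 levels over the 4 arrays. The nearest were Zap70 (0.20), Lef1 (0.22), Il2rb (0.29), Lrrc4b (0.29), Tssk5 (0.30) and Ctsw (0.30). Zap70 gave -3.02 and 5.75, and Il2rb -3.47 and 5.85. Among the nearest 4 to Gzma alone, which lay farther off, were Cd79b (0.78), Pole2 (0.79) and Gimap3 (0.80). With 4 arrays that fall into 2 unlike pairs, many genes share such a profile.

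In the list of processing enzymes and granule cargo, 4 of 10 were at least 2-fold lower and 1 higher at ZT0. At ZT12, 6 were higher and 1 lower, and the medians were -0.81 and 1.08. Across all features, 31.2% were lower and 19.4% higher at ZT0, and 31% higher and 16.1% lower at ZT12. Nkg7, a granule membrane protein of cytotoxic cells, gave -2.996 and 4.27. Ctsc, the cathepsin that trims progranzymes to their active form, gave -0.85 and 1.11. Srgn, the proteoglycan that holds granzymes in the granule, gave 2.16 and -1.20, although 1 of its 3 probes had the opposite sign at ZT12. Lamp1, a lysosomal membrane protein, gave -0.09 and -0.19, and its signs turned with the scaling. Furin, a proprotein convertase, gave -0.67 and 1.43, and its other probe had the opposite sign at both times.

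Of the 14 tested genes that move and dock the granules, 7 were at least 2-fold higher at ZT0 and lower at ZT12, and 1 the reverse. Taken one time at a time, 11 were at least 2-fold higher and 1 lower in ALDH-high cells at ZT0, and 1 was higher and 7 lower at ZT12, with medians of 1.98 and -0.99. Rab27a, the small GTPase that docks the granules, gave 3.85 and -2.76. Unc13d, the priming factor Munc13-4, gave 1.99 and -1.0001, with 1 of its 2 probes of opposite sign at ZT12. Ap3b1, a sorting adaptor subunit, gave 1.55 and -1.30, and Coro1a, an actin regulator that also stands in the pan-leukocyte list, 1.98 and -0.81. Vamp7, a vesicle fusion protein, differed by less than 2-fold at both times (-0.33 and -0.36). Snap23, a fusion protein, gave -1.47 and 3.61 with its brightest probe, while 2 of its other 3 probes ran the other way. Many of these genes are also expressed in neutrophils and other leukocytes, and by their medians the neutrophil and pan-leukocyte markers ran with them. The part of those markers in this result was not tested.

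In the list of granzyme inhibiting serpins, 3 of 5 were lower at ZT0 and 2 of 5 higher at ZT12. The medians were -1.53 and 0.55, the latter of opposite sign under median scaling. Whether each serpin of the list inhibits a granzyme was not examined here. Serpinb9, the inhibitor of granzyme B, gave -1.28 and 0.55, Serpina3g -2.04 and 3.06, Serpinb6b -0.70 and 0.36, and Serpinb6a -1.77 and -0.04. The ZT12 signs of Serpinb9, Serpinb6b and Serpinb6a turned under another scaling. Of 15 intracellular granzyme targets, 7 were higher and 4 lower at ZT0, and 1 was higher and 6 lower at ZT12. Among them Lmnb1, which encodes lamin B1, gave 2.82 and -2.61, and Hmgb2, a chromatin protein, 1.72 and -1.22. Tuba1b, the brightest of the targets, ran the other way with -0.88 and 0.65. Its other probe had the opposite signs, and the ZT12 sign turned under median scaling.

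Of 12 transcription factors of cytotoxic lymphocytes, 3 were at least 2-fold higher and 4 lower at ZT0, and 4 higher and 2 lower at ZT12, with medians of 0.00 and 0.19, whose signs turned with the scaling. These counts lie near the shares of all features, 19.4% higher and 31.2% lower at ZT0 and 31% and 16.1% at ZT12. Eomes, a T-box factor of killer cells, gave -3.02 and 3.47, and Prdm1, which encodes Blimp-1, -1.72 and 1.504. Tbx21, which encodes T-bet, gave -0.02 and 0.23, and both signs turned with the scaling. Klf2, a factor of resting lymphocytes that is also induced by stress, gave 3.18 and -3.05, Nfil3, an NK cell factor, 2.66 and -1.90, and Id2 0.72 and -0.93. Of 13 cytokine receptors and signals, 5 were higher and 3 lower at ZT0, and 6 higher and 5 lower at ZT12. Il2rb, the receptor chain shared by interleukin-2 and interleukin-15, ran with the granzymes as given above. Il15, its ligand, ran the other way with 2.72 and -1.87, as did Stat5b, which carries the signal (2.34 and -1.82), and Il15ra gave 0.70 and -1.05.

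The death ligands and effector cytokines that cytotoxic cells use beside granules had 4 of 10 higher and 4 lower at ZT0. At ZT12, 6 were higher and 4 lower. Shares of all features were 19.4% and 31.2% at ZT0, and 31% and 16.1% at ZT12, in the same order. Ifng, interferon gamma, was 2.16 log2 units lower at ZT0 (-2.16) and at least 5.30 higher at ZT12, where it was not well above background on ALDH-low. Fasl, the Fas ligand, gave -1.17 and 1.76. The chemokines Ccl3 (2.13 and -1.74) and Ccl4 (1.76 and -1.79) and the cytokine Ltb (2.72 and -1.56) ran the other way.

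Of 9 tested NK cell markers, 8 were at least 2-fold lower in ALDH-high cells at ZT0 and 9 higher at ZT12, with medians of -1.50 and 2.60. Ncr1, Klrb1c, Klre1 and Klra4 were well above background on ZT0 ALDH-low and ZT12 ALDH-high alone, so they entered through the arrays where they were high and their direction was fixed. Of the 5 others, 4 were lower at ZT0 and 5 higher at ZT12. Of 11 on the array, 10 were well above background in ALDH-low cells at ZT0, 5 in ALDH-high cells at that time, 5 in ALDH-low cells at ZT12 and 9 in ALDH-high cells then, and their summed signal over the 75th percentile was 18.4, 8.73, 5.60 and 30.6. The defining receptors Ncr1 and Klrb1c were not well above background on ZT0 ALDH-high and ZT12 ALDH-low, with bounds of at most -2.99 and -1.87 at ZT0 and at least 3.52 and 2.60 at ZT12. Klrd1, which encodes CD94, gave -2.92 and 4.38, and Klrk1, which encodes NKG2D, -1.30 and 1.70. Cd244 gave -0.77 and 2.25 with its brightest probe, and another of its probes gave 3.14 and -2.72. That brightest probe makes up most of the summed signal, and without Cd244 the sums were 5.19, 0.959, 0.588 and 6.77.

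Of 14 T cell markers, 8 were at least 2-fold lower and 2 higher at ZT0, and 12 higher and 0 lower at ZT12, with medians of -1.61 and 2.90. Between 12 and 14 of the 14 were well above background on each array, and the summed signals were 27.1, 27.4, 13.7 and 42.1. Cd8a, the coreceptor of killer T cells, gave -1.89 and 4.25, and Cd3e, of the receptor complex, -1.57 and 2.97. Cd3d gave 1.90 and 1.03. Cd4 gave 1.11 and -0.44 with its brightest probe and opposite signs with another, and Cd247 gave 0.48 and 0.07, with both signs turning with the scaling.

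Markers of B cells, which are not a usual source of these granzymes, gave like counts. Of 6, 5 were lower at ZT0 and 5 higher at ZT12, with medians of -1.65 and 4.22. For 1 of the 6, again detected on those 2 arrays alone, the direction was fixed. The summed signals were 19.2, 5.12, 1.52 and 29.6. Cd79b gave -4.39 and 5.62, Ms4a1, which encodes CD20, -1.21 and 5.60, and Cd22 -1.04 and 2.86. Of 9 macrophage and dendritic cell markers, 4 were lower at ZT0 and 4 higher at ZT12, against 31.2% and 31% of all features. Their summed signals were 567, 341, 298 and 736. The part of lymphocyte markers in the differences of Prf1 and the granzymes was not tested.

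Markers of other cell types that these fractions could hold gave other counts. All 6 pan-leukocyte markers were higher in ALDH-high cells at ZT0, and 3 were lower and 0 higher at ZT12 (medians 2.17 and -1.08). Ptprc, which encodes CD45, gave 3.09 and -2.35, with 1 of its 7 probes of opposite sign. Of 7 neutrophil markers, 5 were higher at the first time, and 4 were lower and 1 higher at the second (medians 3.16 and -1.58). The brightest of them, S100a9 (-0.26 and 1.27) and S100a8 (0.35 and 0.57), did not follow these medians, and their signs turned with the scaling. The summed signals of the neutrophil list were 1542, 2476, 1456 and 2209. Mast cell and basophil markers, of interest because of the shared gene cluster, had 2 of 8 higher at ZT0 and 6 higher and 2 lower at ZT12. Cpa3, the mast cell carboxypeptidase, gave -0.17 and 3.12, with the first sign turning with the scaling. Tpsb2 gave -0.51 and 1.23. Hdc, the brightest of the list, ran opposite to the 9 genes with 3.43 and -2.51. Kit did so too with 2.69 and -2.84 in its brightest probe, but its other probes had the opposite signs. The summed signals of the mast cell and basophil list were 36.2, 347, 297 and 57.1. Hdc, with log2 levels of 4.99, 8.42, 8.19 and 5.68, makes up most of each of these sums, so they say little about the rest of the list. The 6 tumour epithelial markers were well above background on all 4 arrays, and all were lower at ZT0 (median -4.15), with 2 higher and 0 lower at ZT12 (median 0.50, of opposite sign under median scaling). Krt14 gave -4.70 and 1.46. Krt18 (-4.22 and 0.02) and Krt8 (-4.07 and 0.07), both brighter, hardly differed at ZT12, and that sign turned with the scaling. The summed signals of the 6 epithelial markers were 192, 11.4, 84.6 and 92.0, and those of pan-leukocyte markers 202, 918, 602 and 283. The label names 4T1 cells, and transcripts of leukocytes as well as of epithelium were thus present in each fraction.

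**Figure D5:**
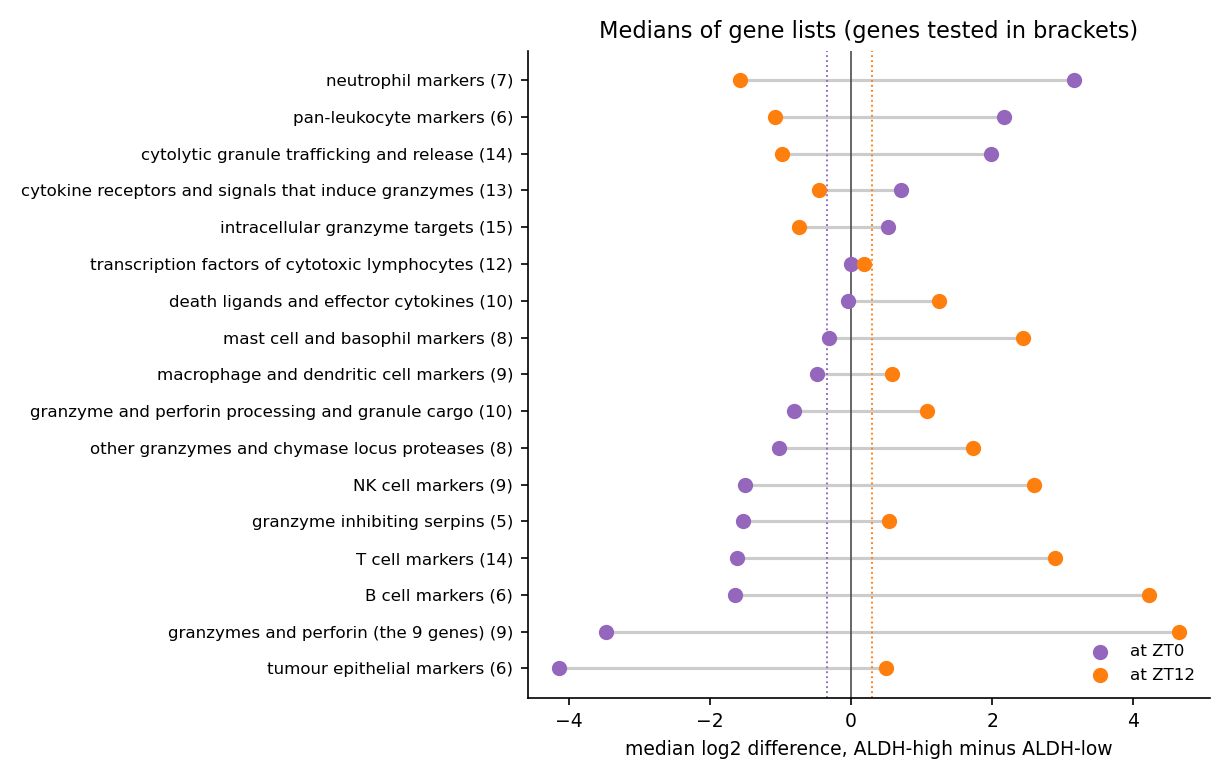
Median ALDH-high minus ALDH-low log2 difference (x axis) of each gene list (y axis, with the number of genes tested) at ZT0 in purple and at ZT12 in orange; dotted lines are the medians of all 23504 features. The 9 genes run from -3.47 to 4.65 and the medians of 10 other lists have the same signs: NK, T and B cells, processing and granule cargo, and the other granzymes and chymase locus proteases under every scaling tried, and macrophages and dendritic cells, mast cells and basophils, tumour epithelium, serpins and death ligands with 1 sign that turns with the scaling. Granule trafficking (1.98 and -0.99), neutrophil, pan-leukocyte and cytokine receptor lists have the opposite signs, as do the intracellular targets, whose ZT12 sign turns with normexp.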

How the data were processed

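Expression was measured on 4 one-colour Agilent arrays, 1 per group, with Cy3-labelled cRNA. Per the file headers, spots were read with Agilent Feature Extraction 10.7.1.1 on a design whose grid names build mm9; the submitters' processing notes give 9.5.1.1. Per the file headers, the deposited processed signal is a linear intensity, background-subtracted and detrended within an array, with surrogate values for dim spots and no normalization between arrays. The scanner's error, spot means, local backgrounds and flags deposited with it were also used. The authors' deposited series table holds linear intensities with a median of 28.3 in each column, quantile normalized by their values and not centred, with the tool not given in the sources used here.

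Control and outlier spots were left out. For 56605 probes the processed signal was put on the log2 scale and each array's 75th percentile subtracted, the probe of highest mean level stood for each of 37074 gene names, and the 23504 well above background on at least 2 arrays were tested. A gene was called past a fold at 2-fold, bounds included. The additive fit used lmFit and eBayes of limma 3.58.1 under R 4.3.3, with two-sided p-values adjusted by Benjamini-Hochberg and a threshold of 0.05, and was tested on simulated data. With 1 array per group, the p-values of this fit set each term against the ALDH by time difference and measure no spread between replicates. Python 3.11.15 with pandas 2.3.3, numpy 2.4.6, Biopython 1.88 and matplotlib 3.10.9 did the rest. Promoters were matched by symbol to RefSeq (GRCm38.p6, the C57BL/6J reference, while the mice were BALB/C), with all 9 genes found.

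The 9 genes, the 16 other gene lists (164 of 165 entries on the array) and the rules were chosen with earlier results of these data known. Genes named are the 9, the 3 genes of each list that had the highest mean level and were detected on all 4 arrays, 21 fixed genes, and the nearest 6 and 4 by pattern; not all of them are printed, and 1 is not reported here. Alternatives were median and quantile scaling, a 75th percentile over probes detected on all arrays, normexp (offset 50) with either scaling, the series table, the mean of all probes, outlier spots kept, 4-fold, bounds left out, and for the fit other filters and terms.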

Additional observations from a re-analysis of the deposited data

Results flagged for a closer look

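The ALDH-high minus ALDH-low difference had opposite signs at ZT0 and ZT12 in all 9 genes, with 1 array in each group. The difference between the times was not tested, and it cannot be told apart from slide position. As the ZT12 difference minus the ZT0 difference in log2 units, it was 11.82 for Gzma, 9.23 for Gzmb and 3.94 for Prf1, all measured on 4 arrays. It was at least 12.96 for Gzmc, 9.80 for Gzme, 7.55 for Gzmd, 7.52 for Gzmf, 6.36 for Gzmg and 5.80 for Gzmk, each resting on 1 or more bounds. These values hold for the main processing, and the bounds moved with the background correction.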

How the results depend on the processing

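Over 408 member differences recomputed under 8 other settings, 0 that were at least 2-fold changed sign, 216 moved by less than the scanner error and 192 by more. With bounds left out, 3 of the 9 genes counted as higher in ALDH-high at ZT12 in place of 9, and 3 as lower at ZT12 in ALDH-low in place of 9, since fewer genes then have a value. With normexp and quantile normalization the counts past 2-fold were 7 at ZT0, 7 at ZT12, 8 over time in ALDH-low and 6 over time in ALDH-high, where Gzmk (-0.63 at ZT0) and Gzmg (0.46 at ZT12) fell under 2-fold. The additive fit called 0 features for ALDH and 0 for time (limma) in each of 12 alternatives, and with array position in place of the other term 1911 and 360 features had an unadjusted p under 0.05. Signal over background limits Gzmd, Gzmg and Gzmk, which were well above background on 2 arrays.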
